A study of Mus musculus with 9 samples.

Results

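The genes for 5 kainate receptor subunits and 4 metabotropic glutamate receptors were followed in ribosome-associated RNA of hippocampal parvalbumin interneurons (PV INs). The genes were Grik1, Grik2, Grik3, Grik4, Grik5, Grm2, Grm3, Grm5 and Grm7, a list of 9 chosen by name among the 37620 gene identifiers of the deposited count tables, and all 9 passed the filter on low counts. The study lowered Ablim3 in the dentate gyrus (DG) in order to increase the contacts of its mossy fibers onto PV INs, and asked which mRNAs change in PV INs of CA3/CA2. Male and female PV-Cre; Rpl22HA/HA mice that were 2 months old received a lentivirus in the DG carrying either the Ablim3 shRNA (shRNA, 4 samples) or a non-target shRNA (shNT, 5 samples), and CA2/CA3 was collected 2 weeks later. Each sample was a pool of 6 mice, and ribosomes were pulled down through the HA tag on Rpl22, so both groups carried the Cre allele, the tag and a virus. Cre follows the Pvalb gene in this line, so the tag marks cells by Pvalb and not by whether the virus reached their inputs, and RNA of other cells that comes down with the beads is counted too.

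Glutamate acts on ion channels and on G protein-coupled receptors. Kainate receptors are channels of 4 subunits: the products of Grik1, Grik2 and Grik3 can form channels by themselves, whereas those of Grik4 and Grik5 bind kainate tightly and need a partner of the other kind. Metabotropic receptors work in pairs without a pore: Grm5, of group I, couples to Gq and raises intracellular calcium, while Grm2 and Grm3, of group II, and Grm7, of group III, couple to Gi/o, lower cyclic AMP and often restrain transmitter release. Hippocampal mossy fibers and their CA3 targets are a classical site of both receptor families, with Grik4 best known from CA3 pyramidal neurons and Grm3 from astrocytes as well as neurons.

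Reads counted on genes ran from 19680352 to 34578837 in the shNT samples and from 18281719 to 30421093 in the shRNA samples. Pvalb averaged 998 CPM (counts scaled to library size, with TMM factors) in shNT and 526 CPM in shRNA, and Gad1, which makes GABA, averaged 3030 and 2341 CPM, so the labelled cell type was present in both groups. Of 16 PV IN markers, 0 were called with edgeR, where 1.74% of all genes tested were called up and 0.0133% down. At an unadjusted p under 0.05, 5 of 16 were lower (13.4% of all genes) and 0 of 16 higher (20.7%). All 16 had a lower fitted level in shRNA, whereas 57.9% of all genes had a higher one. The summed level of these 16 markers was 9908 to 15260 CPM in shNT and 4898 to 11760 CPM in shRNA. Transcripts of pyramidal neurons were present too, with Slc17a7 at a mean of 258 CPM in shNT and 433 CPM in shRNA. Ablim3 itself, the target in the DG, lay between 12.1 and 22.6 CPM in shNT and between 13.7 and 21.7 CPM in shRNA, in tissue collected from CA2/CA3 and not from the DG. The study measured Ablim3 in the DG by qRT-PCR and reports that it was lowered there. The shNT sample 2 and shRNA sample 4 each stood apart from the rest of their group. The shNT sample 2 had 18.6% of its uniquely aligned reads outside annotated exons, against 9.76 to 11.3% in the other shNT samples. The shRNA sample 4 had 27.2% there, against 12.4 to 19.8% in the other shRNA samples, together with the lowest PV IN marker level and the highest astrocyte marker level of all 9 samples. The shRNA sample 1, at 19.8%, also lay above shNT sample 2. The mean log2 level of 7 nuclear-retained noncoding RNAs, relative to shNT, was high in these same libraries. It was 1.61 in shNT sample 2, 1.63 in shRNA sample 1 and 2.29 in shRNA sample 4, against -0.792 to 0.24 in the other samples. In addition, the sample names fall into a larger set (3 shNT and 3 shRNA samples) and a smaller set (2 shNT samples and shRNA sample 4), and what the sets mark is not given in the sources used here.

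In the shRNA samples Grik4 and Grm7 rose, by 1.17 and 1.31 on the log2 scale, and no member fell. Grm2 and Grm3 had fitted differences as large as these, but with an FDR just over the threshold of 0.05, a range (0.05 to 0.1, with at least a 1.5-fold increase) that held 10.9% of all genes and, for decreases, 4.25%. The remaining members, Grik1, Grik2, Grik3, Grik5 and Grm5, had log2 differences between -0.22 and 0.42 with intervals that included 0. A call required an FDR under 0.05 together with at least a 1.5-fold change in edgeR's quasi-likelihood test over 15069 genes. By this rule 2 of 9 members were called up, where 1.74% of all genes tested were, and 0 of 9 were called down, where 0.0133% of all genes were. At an unadjusted p under 0.05, 4 of 9 were higher and 0 of 9 lower, against 20.7% and 13.4% of all genes. For 2 of 9 members all shRNA values exceeded all shNT values (8.97% of all genes), and for 0 of 9 all were lower (6.68%). The median log2 difference was 0.42 over the members and 0.11 over all genes tested, and 8 of 9 members had a positive difference, as did 57.9% of all genes.

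**Figure D1:**
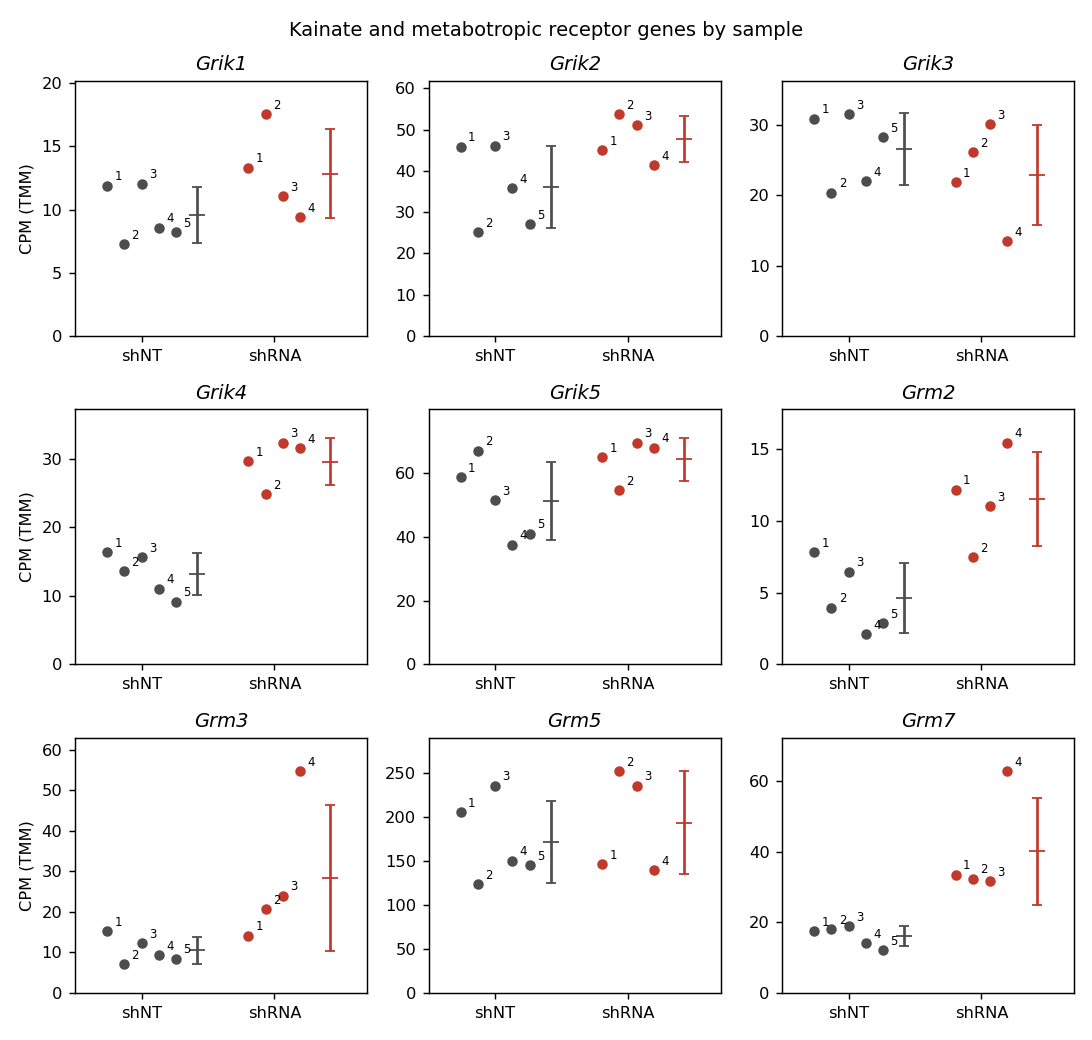
Level of each of the 9 receptor genes in CPM (TMM, linear axis from 0) in the 5 shNT samples (grey) and the 4 shRNA samples (red). Numbers beside the points are the sample numbers and bars are the mean with 1 SD; every shRNA sample lies above every shNT sample for Grik4 and Grm7 and for no other member, and shRNA sample 4 is far above the rest for Grm3 and Grm7.

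Promoter sequences are given for the 4 genes with the largest differences. They come from RefSeq on build GRCm38.p6, which held 8 promoter entries for 7 of the 9 members, and they are read 5′ to 3′ on the strand of the gene, as 250 bases before the start and the first 30 after it. All 4 were found once, unchanged, in the mm9 genome to which the study aligned. For Grik4 (chr9:42944342-42944621, minus strand) and Grm7 (chr6:110645262-110645541, plus strand, the earlier of its 2 entries), the 2 genes that rose, capitals mark every CG dinucleotide, and for Grm2 (chr9:106656080-106656359, minus strand) and Grm3 (chr5:9725323-9725602, minus strand) capitals mark the letters TGACAG or their reverse complement.
Grik4: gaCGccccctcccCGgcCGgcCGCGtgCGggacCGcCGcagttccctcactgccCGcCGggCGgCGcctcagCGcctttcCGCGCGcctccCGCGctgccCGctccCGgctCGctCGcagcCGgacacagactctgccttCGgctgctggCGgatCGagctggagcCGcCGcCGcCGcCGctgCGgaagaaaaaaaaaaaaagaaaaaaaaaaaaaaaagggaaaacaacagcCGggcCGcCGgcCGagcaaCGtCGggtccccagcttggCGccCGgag
Grm7: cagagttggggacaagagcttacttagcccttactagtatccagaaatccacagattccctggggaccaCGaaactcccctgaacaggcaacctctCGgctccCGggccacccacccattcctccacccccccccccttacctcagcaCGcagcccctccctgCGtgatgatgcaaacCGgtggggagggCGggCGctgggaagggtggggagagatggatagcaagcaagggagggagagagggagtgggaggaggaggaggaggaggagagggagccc
Grm2: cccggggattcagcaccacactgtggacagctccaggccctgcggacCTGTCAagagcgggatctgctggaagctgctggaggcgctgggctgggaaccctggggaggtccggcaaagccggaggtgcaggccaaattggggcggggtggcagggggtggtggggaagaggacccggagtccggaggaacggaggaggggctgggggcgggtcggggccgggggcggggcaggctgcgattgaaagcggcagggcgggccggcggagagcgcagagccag
Grm3: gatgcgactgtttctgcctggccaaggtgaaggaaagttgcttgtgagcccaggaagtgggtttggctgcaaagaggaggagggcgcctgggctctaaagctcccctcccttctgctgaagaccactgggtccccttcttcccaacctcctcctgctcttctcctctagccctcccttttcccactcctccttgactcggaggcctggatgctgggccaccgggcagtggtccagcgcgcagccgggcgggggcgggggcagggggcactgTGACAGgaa

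The full windows of 300 bases held 42 CG dinucleotides in Grik4, 10 in this entry of Grm7 and 15 in its other entry. The median was 7 over 32851 promoters of the same length. The 2 genes that rose thus differed in CG content, with both above the median. The letters TGACAG, the core that MEIS and related homeodomain factors bind, were searched on both strands because the study went on to work with Meis2. They stood once in Grm2 and once in Grm3, which were not called, and in no window of Grik2, Grik3, Grik4, Grik5 or Grm7. Over all promoters 19.2% held them. The letters TGACGTCA (CRE), GCGTGGG (the EGR core) and CACGTG (an E-box), which 1.79%, 5.04% and 7.15% of promoters held, stood in no promoter entry of a member. None of the 4 searched motifs contains another.

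Levels of different genes were compared as CPM per kb of exon, in which long and short transcripts can be set side by side. In the shNT samples Grm5 was highest, at 21.3 ± 5.77 CPM per kb (SD, n = 5), followed by Grik5 at 13.3 ± 3.18, and these stood at the 79.5th and 71.2nd percentile of the 15069 genes. Grm5 exceeded Grik5 in 4 of 5 samples, so this pair did not separate beyond its spread. The next step was a clear gap. Grik2, at 4.35 ± 1.20 CPM per kb, lay below Grik5 in every shNT sample with no overlap of the ranges. It lay above Grik3 in 5 of 5 samples, although the ranges overlapped. Grik3 (2.97 ± 0.57), Grm3 (2.94 ± 0.92), Grik1 (2.88 ± 0.67), Grm7 (2.74 ± 0.50) and Grik4 (2.23 ± 0.52 CPM per kb) formed a group in which neighbours overlapped, and Grm2 was lowest at 1.40 ± 0.73 CPM per kb. With the length of the longest transcript in place of all exons, Grik2 stood at 7.50 and Grm7 at 3.83 CPM per kb in shNT.

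**Figure D2:**
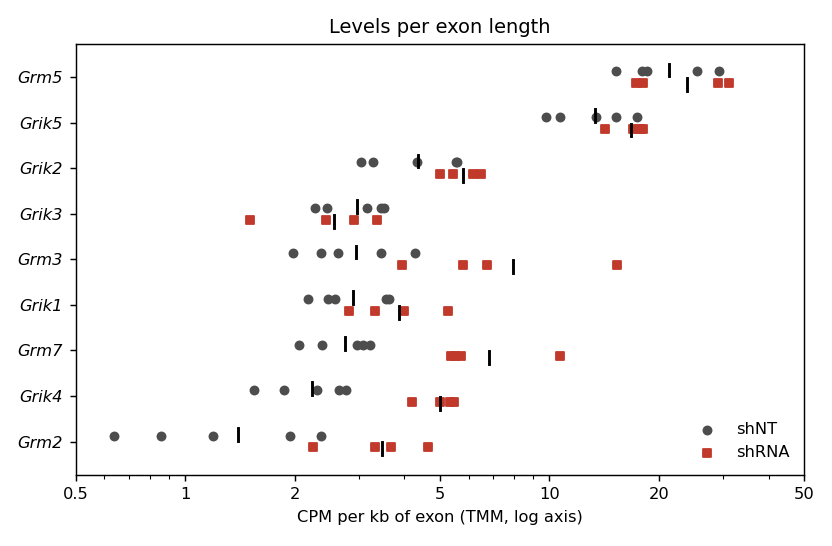
Level of the 9 receptor genes as CPM per kb of exon (log axis), with grey circles for the 5 shNT samples, red squares for the 4 shRNA samples and black ticks for the group means. Genes are ordered by their shNT mean, from Grm5 at 21.3 to Grm2 at 1.40 CPM per kb; in shRNA the means of Grm3, Grm7 and Grik4 stand above or near that of Grik2, while Grm5 and Grik5 stay on top.

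On the same scale in the shRNA samples, Grm5 (23.9 ± 7.25 CPM per kb, n = 4) and Grik5 (16.7 ± 1.74) kept the highest means. Grm3 had a mean of 7.94 ± 5.04 CPM per kb that rested on sample 4, with 3.95, 5.79 and 6.72 in samples 1 to 3 and 15.3 in sample 4. Grm7 was at 6.82 ± 2.58 CPM per kb, Grik2 at 5.78 ± 0.68 and Grik4 at 5.01 ± 0.57. By the longest transcript Grik2 was at 9.96, Grm7 at 9.53 and Grm3 at 8.04 CPM per kb, so the order of these members depended on the length used. Grik3, the fourth member in shNT, was last in shRNA at 2.55 ± 0.79 CPM per kb. All 8 neighbouring pairs in the order of the exon-based means had overlapping ranges in shRNA.

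Among the subunits that form channels by themselves, none passed the test. Grik1 (GluK1), known for its expression in hippocampal interneurons, measured 11.9, 7.25, 12.1, 8.58 and 8.22 CPM in shNT samples 1 to 5 and 13.3, 17.6, 11.1 and 9.38 CPM in shRNA samples 1 to 4. The shRNA samples 1 and 2 lay above every control, and samples 3 and 4 lay among the controls. The log2 difference was 0.42 (SE 0.23, 95% interval -0.08 to 0.92, FDR 0.208).

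Grik2 (GluK2), the main subunit of kainate receptors on CA3 pyramidal neurons at mossy fiber synapses, measured 45.9, 25.2, 46.1, 35.8 and 27.1 CPM in shNT and 45.0, 53.7, 51.0 and 41.4 CPM in shRNA. Samples 1 and 3 of shNT reached the level of the shRNA samples, and samples 2 and 5 lay well below it. The log2 difference was 0.41 (SE 0.20, interval -0.03 to 0.85, FDR 0.171).

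Grik3 (GluK3), which forms channels of low glutamate sensitivity, measured 30.9, 20.4, 31.6, 22.0 and 28.3 CPM in shNT and 21.9, 26.2, 30.2 and 13.5 CPM in shRNA. It was the only member with a negative difference (log2 -0.22, SE 0.23, interval -0.72 to 0.29, FDR 0.511), and its lowest value was that of shRNA sample 4. Without shRNA sample 4 the difference was -0.04, and it was positive in 2 other analyses, at 0.10 with limma voom and 0.12 with reads outside exons as a covariate.

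Of the high-affinity subunits, Grik4 rose and Grik5 did not pass the test. Grik4 (GluK4; ENSMUSG00000032017, mm9 chr9:42326218-42752576, minus strand) measured 16.4, 13.6, 15.7, 11.1 and 9.13 CPM in shNT and 29.6, 24.8, 32.3 and 31.6 CPM in shRNA. The lowest shRNA value exceeded the highest shNT value, as for 8.97% of all genes tested. The means were 13.2 ± 3.06 CPM (SD, n = 5) and 29.6 ± 3.37 CPM (n = 4), a log2 difference of 1.17 (SE 0.19, interval 0.76 to 1.58, FDR 0.0403 with edgeR). An exact two-sided permutation test on log2 CPM gave p = 0.00794, the smallest it can give. Left out in turn, the samples moved the log2 difference between 0.97 and 1.26, all positive. The call was lost without shNT sample 3 (FDR 0.0744), 4 (0.155) or 5 (0.169) or shRNA sample 1 (0.086) or 3 (0.121), where no gene at all was called. Without both shNT sample 2 and shRNA sample 4, but with shRNA sample 1 kept, the log2 difference was 1.16 (FDR 0.0236). In the larger set of names alone it was 0.89 (FDR 0.178), where edgeR called 0 genes and 1493 had an unadjusted p under 0.05.

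Grik4 is itself a gene of CA3 pyramidal neurons. The other 11 markers of CA3 and CA2 pyramidal neurons had a median log2 difference of 0.64. Of them, 7 of 11 were higher at an unadjusted p under 0.05 (20.7% of all genes) and 1 was called up (1.74%). For 5 of 11 every shRNA sample was above every shNT sample (8.97%). Their summed level was 1075 to 1962 CPM in shNT and 1970 to 2468 CPM in shRNA, apart by a narrow gap only. Camk2a, Chgb and Slc17a7 weigh most in this sum, and none of the 11 markers was at 0 in any sample. The part of pyramidal neuron RNA in the Grik4 difference was not tested. More RNA per cell and more RNA of untagged cells coming down with the beads cannot be told apart in these bulk samples. The fitted log2 differences of the 11 markers ran from -0.17 to 0.95.

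Grik5 (GluK5), the most abundant kainate subunit here per length, measured 58.6, 66.9, 51.4, 37.4 and 41.0 CPM in shNT and 64.9, 54.6, 69.4 and 67.8 CPM in shRNA. The highest control, sample 2, lay among the shRNA values. The log2 difference was 0.33 (SE 0.18, interval -0.06 to 0.72, FDR 0.208). With limma voom it was 0.53 (FDR 0.0127, under 1.5-fold), and in the larger set of names alone it was 0.06 (FDR 0.914). With per-length levels of the 5 subunits summed in each sample, Grik5 made up 51.5 ± 7.25% of the sum in shNT and 49.3 ± 4.81% in shRNA. Grik4 made up 7.31 to 9.22% in the shNT samples and 12.7 to 16.5% in the shRNA samples, with no overlap, and Grik3 made up 8.34 to 14.9% and 4.66 to 9.23%.

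**Figure D3:**
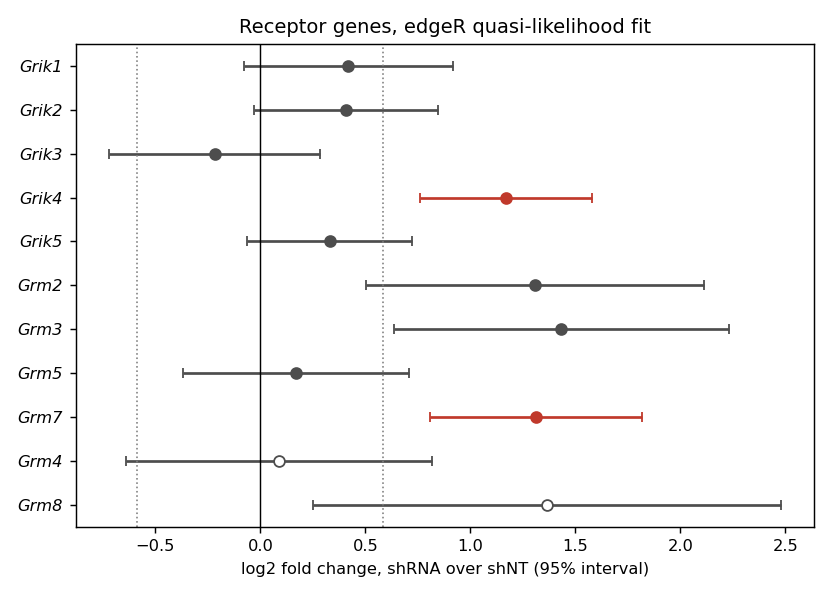
Log2 fold change of shRNA over shNT with its 95% interval from edgeR's quasi-likelihood fit, for the 9 members (filled) and the group III receptors Grm4 and Grm8 (open). Red marks the called genes, Grik4 at 1.17 and Grm7 at 1.31; dotted lines mark a 1.5-fold change in either direction, and the intervals of Grm2 and Grm3 exclude 0 although both miss the FDR threshold.

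Grm5 (mGlu5), the group I receptor among the members, measured 205, 123, 235, 149.8 and 145 CPM in shNT and 146, 251.5, 234.9 and 139 CPM in shRNA. Each group held a high pair and a set of lower samples, and the ranges nearly coincided. The log2 difference was 0.17 (SE 0.24, interval -0.37 to 0.71, FDR 0.638), and it was negative when each sample was corrected for gene length (-0.23) or exon length (-0.19) or when shRNA sample 3 was left out (-0.0093). It was larger with limma voom, at 0.45 (FDR 0.0482, under 1.5-fold), and with reads outside exons as a covariate, at 0.51 (FDR 0.118). Although its level did not separate the groups, Grm5 made up 71.0 to 77.3% of the summed per-length level of the 4 metabotropic members in shNT. In shRNA samples 1 to 4 it made up 57.6, 69.7, 65.4 and 36.0%, so the low end of this range rested on sample 4.

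The group II receptors had large differences that did not pass the FDR threshold. Grm2 (mGlu2), a presynaptic receptor best known in the hippocampus from mossy fibers and granule cells, measured 7.82, 3.95, 6.45, 2.12 and 2.85 CPM in shNT and 12.2, 7.46, 11.0 and 15.4 CPM in shRNA. A single pair overlapped, since shRNA sample 2 lay just below shNT sample 1. The means were 4.64 ± 2.42 CPM (n = 5) and 11.5 ± 3.29 CPM (n = 4), with a log2 difference of 1.31 (SE 0.37, interval 0.50 to 2.11, FDR 0.0642) and an exact permutation p of 0.0397. Without shNT sample 1 it was called, at 1.58 (FDR 0.0375). The 10 markers of DG granule cells, whose cell bodies lie in the DG, had a median log2 difference of 0.77, with 0 called by edgeR, 5 of 10 higher at an unadjusted p under 0.05 (20.7% of all genes) and 4 of 10 higher in every shRNA sample than in any shNT sample (8.97%). Their summed level was 148 to 242 CPM in shNT and 243 to 283 CPM in shRNA, none was at 0, and their part in the Grm2 difference was not tested.

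Grm3 (mGlu3) measured 15.3, 7.07, 12.3, 9.38 and 8.47 CPM in shNT and 14.1, 20.7, 24.1 and 54.8 CPM in shRNA. The value of shRNA sample 4 was far above that of any other sample, and shRNA sample 1 lay below shNT sample 1. The means were 10.5 ± 3.29 and 28.4 ± 18.0 CPM, with a log2 difference of 1.43 (SE 0.36, interval 0.63 to 2.23, FDR 0.0589) and an exact permutation p of 0.0238. Without shRNA sample 4 the log2 difference was 0.89 (FDR 0.1), and without shNT sample 1 it was 1.61 and called (FDR 0.041). The 12 astrocyte markers had a median log2 difference of 1.39, with 10 of 12 higher at an unadjusted p under 0.05 (20.7% of all genes) and 0 called up (1.74%). Their mean log2 level relative to shNT was 2.37 in shRNA sample 4 and 0.33 to 0.65 in the other shRNA samples, their summed level was 1126 to 1586 CPM in shNT and 1490 to 5819 CPM in shRNA, and none was at 0. Gja1, a gap junction gene of astrocytes, reached 588 CPM in shRNA sample 4 and 48.5 to 101 CPM in the other 8 samples. The part of astrocyte RNA in the Grm3 difference was not tested.

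Grm7 (mGlu7; ENSMUSG00000056755, mm9 chr6:110595575-111517224, plus strand), a presynaptic receptor of low glutamate affinity found at the active zone, was the metabotropic member that rose. It measured 17.5, 18.1, 18.9, 14.0 and 12.1 CPM in shNT and 33.6, 32.4, 31.7 and 62.9 CPM in shRNA. The shRNA samples 1 to 3 lay close together, every shRNA sample was above every control, and shRNA sample 4 was far higher still. The means were 16.1 ± 2.92 CPM (n = 5) and 40.1 ± 15.2 CPM (n = 4), with a log2 difference of 1.31 (SE 0.23, interval 0.81 to 1.82, FDR 0.0403) and an exact permutation p of 0.00794. The call was lost without the same 5 single samples as for Grik4, at the same FDR values. Without shRNA sample 4 the log2 difference was 0.99 (FDR 0.0369). Without both shNT sample 2 and shRNA sample 4, but with shRNA sample 1 kept, it was 1.07 (FDR 0.0236). In the larger set of names alone it was 0.81 (FDR 0.167). The 8 markers of oligodendrocyte precursors had a median log2 difference of 0.99, with 7 of 8 higher at an unadjusted p under 0.05 (20.7% of all genes), 3 of 8 called up (1.74%) and 5 of 8 without overlap of the groups (8.97%). Their summed level was 74.3 to 113 CPM in shNT and 122 to 159 CPM in shRNA. Of 9 oligodendrocyte markers, 8 were higher at that p and 0 were called, with a summed level of 795 to 2452 CPM and 1507 to 3121 CPM. No marker of either list was at 0, and their part in the Grm7 difference, like that of the astrocyte markers, was not tested. An exon of another gene covers 2.209% of the exon length of Grm7, and reads were counted without strand.

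Between the sets of names, most members had a wider difference in the smaller set than in the larger. Grik2 was nearly alike, at 0.403 in the larger set and 0.41 in the smaller. Grik1 (0.44 and 0.16) and Grm5 (0.18 and -0.08) were narrower in the smaller set. The mean log2 difference of Grm7 was 0.84 in the larger set and 2.26 in the smaller, that of Grm3 was 0.80 and 2.61, and that of Grm2 was 0.77 and 2.61. For Grik4 the values were 0.92 and 1.64, for Grik5 0.10 and 0.79, and for Grik3 -0.07 and -0.88. The smaller set holds a single shRNA sample, number 4, which already stood apart, so the set cannot be told apart from that library. An interaction term in edgeR had an FDR of 0.0105 for Grm7, 0.0325 for Grm3 and 0.0334 for Grm2, and under 0.05 for 21.7% of all genes, but it rests on that library and is no test of the sets.

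**Figure D4:**
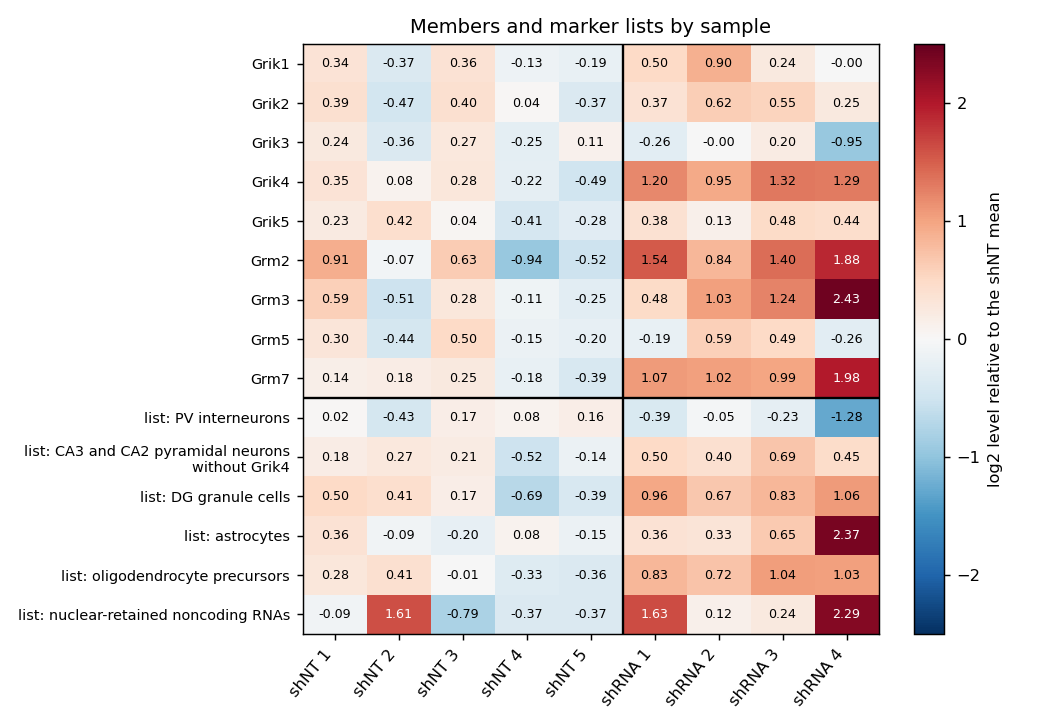
Log2 level of each member (upper 9 lines) and mean log2 level of 6 marker lists (lower lines) in every sample, set against the average shNT level. Red is higher and blue lower; shRNA sample 4 shows the highest Grm3 (2.43), Grm7 (1.98) and astrocyte level (2.37) and the lowest PV IN level (-1.28), whereas Grik4 is alike in the 4 shRNA samples (0.95 to 1.32).

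Across the 9 samples, Grik4 varied with Grm2 (Pearson r 0.93 of log2 CPM) and Grm7 (0.92), and Grm3 with Grm7 (0.89), while Grik1 and Grik2 formed another pair (0.87) that varied with Grm5 (0.75 and 0.79). Grik3 had negative coefficients with Grm7 (-0.57) and Grm3 (-0.42). These coefficients include the difference between the groups. With the group means taken out they were 0.87 for Grik4 with Grm2, 0.60 for Grik4 with Grm7, 0.74 for Grm3 with Grm7 and 0.81 for Grik1 with Grik2, 0.78 and 0.85 for those with Grm5, and -0.63 and -0.27 for Grik3 with Grm7 and Grm3. All are descriptions over samples that share library quality and cell makeup. Among 9487 genes with a mean of at least 10 CPM, the levels most like Grik4 over the 9 samples were those of Nedd4l (0.989), a ubiquitin ligase, and Cdh8 (0.988), a cadherin. For Grm7 they were Ints2 (0.995) and Fa2h (0.987), for Grm2 the activity-regulated gene Arc (0.994) and the adenosine receptor Adora1 (0.982), and for Grm3 the integrin Itgav (0.991) and Bhlhe40 (0.99). Grm5 was most like Chm (0.986) and Rasgrf2 (0.984), and Grik2 most like Ipo13 and Mical2 (0.991 each). Grik3 (Tspyl3, 0.976, and Eef2, 0.965), Grik5 (Lrrc10b, 0.978, and Fam163b, 0.967) and Grik1 (Zdhhc21, 0.941, and Zfp942, 0.936) had slightly less similar neighbours.

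Most members are long genes. The gene body of Grm7 spans 921.6 kb, Grik2 689.3 kb, Grm5 532.5 kb, Grik4 426.4 kb, Grik1 393.5 kb, Grm3 240.1 kb, Grik3 223.5 kb, Grik5 62.5 kb and Grm2 11.6 kb, against a median of 22.8 kb. The log2 difference increased with length over all genes, from a median of -0.16 in genes of at most 6.8 kb to 0.43 in genes longer than 227 kb. The longest bin held 6 of the 9 members, and in it 6.11% of genes were called up. Grik4 and Grm7 lay above the median of that bin, Grik1 and Grik2 near it, and Grm5 below it. When each sample was corrected for its trend with gene length, the log2 difference of Grik4 was 0.78 (FDR 0.0672), that of Grm7 was 0.87 (FDR 0.0782) and that of Grm3 was 1.03 (FDR 0.0847), while that of the short gene Grm2 was 1.32 (FDR 0.082). That of Grik2 was 0.0082, that of Grik1 0.04 and that of Grik5 0.07, whereas that of Grm5 was -0.23 and that of Grik3 was -0.58 (FDR 0.126). After this correction edgeR called 0 genes, with 4724 at an unadjusted p under 0.05.

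**Figure D5:**
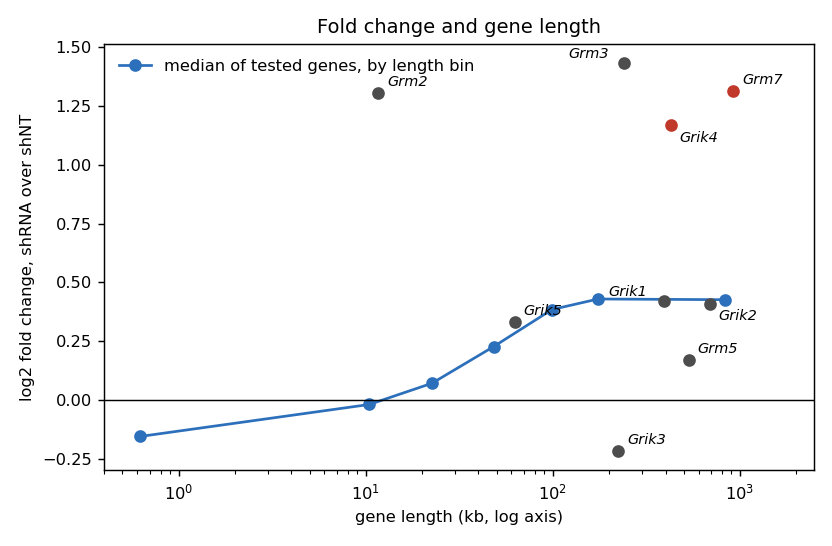
Log2 fold change of shRNA over shNT against gene length (log axis) for the 9 members (red called, grey not called), with the median of all tested genes in 7 length bins (blue, from -0.16 to 0.43). Grm7, Grik4, Grm3 and Grm2 stand well above the median at their length, and Grik3 stands below it.

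Beyond the members, Grm8 and Grm4, which belong to group III like Grm7, were not called. Grm8 averaged 0.824 CPM in shNT and 2.14 CPM in shRNA (log2 1.36, FDR 0.0954). Grm4 was at 7.89 and 8.39 CPM (log2 0.09). Grm6, the receptor of retinal ON bipolar cells, had 4 reads in shNT sample 1 and 0 in the other samples, and was not tested.

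Of the 46 genes on lists of other metabotropic receptors, receptor partners, Gq signalling and Gi/o signalling, 45 were tested, 1 was called up and 0 down, and 14 had a higher and 0 a lower level with an unadjusted p under 0.05. Over all genes tested, 1.74% were called up, and 20.7% were higher and 13.4% lower at that p, so the call is near the background. Dgkb, a diacylglycerol kinase on the Gq list, averaged 70.2 CPM in shNT and 109.5 CPM in shRNA and was not called (log2 0.64, FDR 0.063). Among the 18 receptor partners the lowest p-values were those of C1ql3, a secreted synaptic protein that binds adhesion receptors, at 3.87 and 8.28 CPM (log2 1.10, FDR 0.063), and Homer3, a scaffold that binds group I receptors, at 14.8 and 24.9 CPM (log2 0.75, FDR 0.0717). Exons of Ddx49 cover 25.407% of the exon length of Homer3. Reads that could not be given to a single gene were set apart in the counts, so reads of the shared stretch may be missing from Homer3. Neto1 and Neto2, the auxiliary subunits of kainate receptors, had log2 differences of 0.02 and -0.02. Of the 11 Gi/o genes, the lowest p-values were those of Kcnj6, a potassium channel opened by G proteins, at 10.3 and 16.5 CPM (log2 0.68, FDR 0.0655), and the G protein subunit Gnai3, at 21.0 and 28.1 CPM (log2 0.42, FDR 0.117). The median log2 difference was 0.30 for the partners, 0.47 for Gq and 0.24 for Gi/o signalling. C1ql2 and C1ql3 are also on the list of DG granule cell markers and Necab2 on that of CA3 and CA2 pyramidal neurons. Without shNT sample 3, 4 or 5 or shRNA sample 1 or 3, 0 pathway genes were called, and no gene of any kind was.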

How the data were processed

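Ribosome-associated RNA of CA3/CA2 PV INs was sequenced in 5 shNT and 4 shRNA samples, grouped by their titles. According to the sources used here, the authors aligned reads to the transcriptome of mm9 with STAR and counted them per gene with HTSeq 0.6.0 regardless of strand; they deposited raw counts for each sample. The annotation they used is not given in the sources used here, and positions, lengths and 37205 gene names came from GENCODE on the same build, with older symbols matched through RefSeq. Reads outside exons were kept out of library sizes and made up 9.76 to 27.2% of uniquely aligned reads.

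A gene was kept if its CPM reached 1 in any sample (15069 genes; 22551 were removed). After TMM normalization the groups were compared with the quasi-likelihood test of edgeR 4.0.16 (R 4.3.3), with Benjamini-Hochberg adjustment and condition as the only term. The study used edgeR, and its text does not say which test. Single genes were also compared by exact permutation on log2 CPM (prior count 2), with no adjustment over the members. The biological coefficient of variation was 0.303, and counting error was not set against it gene by gene. Counting error weighs most for genes with few reads, such as Grm8 with 8 and 10 reads in shNT samples 4 and 5. Whether the pools came from separate cohorts is not stated, so p-values measure the spread between these pools.

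The receptors and all gene lists were chosen with earlier results of these data known. Named genes were the 9 members, every called gene of 4 pathway lists with the 2 lowest p-values of each, and the 2 genes most correlated with each member; Neto1, Neto2, Grm4, Grm6 and Gja1 were added after their values were seen. Some genes that this rule names are not reported here. The fit was tested on simulated counts of known answer. Alternatives were other tests (likelihood ratio, DESeq2 1.42.0, limma 3.58.1 voom), scalings, filters, blocks, length corrections, and samples left out.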

Additional observations from a re-analysis of the deposited data

Results flagged for a closer look

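A sample far from the others of its group was searched for in 20 groups of values, where chance gives about 1 such case, and 2 were found. The share of uniquely aligned reads outside annotated exons was 18.5693% in shNT sample 2, against 9.76 to 11.3% in the other shNT samples. The level of Grm7 was 62.87 CPM in shRNA sample 4, against 31.65 to 33.57 CPM in the other shRNA samples. The difference between shRNA and shNT also differed between the 2 sets of sample names for Grm2 (interaction FDR 0.0334), Grm3 (FDR 0.0325) and Grm7 (FDR 0.0105) in edgeR's quasi-likelihood test, but the smaller set holds 1 shRNA sample, number 4, so this restates how that library stands apart and is no test of the sets.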

How the results depend on the processing

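Grik4, Grm7, Grm2 and Grm3 kept a positive difference in every alternative tried, and 0 members were called down in any. Up calls among the 9 members numbered 2 in the analysis reported, where 1.75% of all genes were called in either direction. They numbered 4 (Grik4, Grm7, Grm2 and Grm3) with the likelihood ratio test, DESeq2 or limma voom (14.8, 15.7 and 19.4% of all genes called). They numbered 3 with no filter on low counts (2.14% of all genes called). They numbered 0 with library size only, upper quartile scaling, the larger set of names alone, correction for gene length, correction for exon length, or reads outside exons as a covariate, where no gene of any kind was called (1493 to 5360 genes at an unadjusted p under 0.05). Called pathway genes numbered 1 in the analysis reported, 8, 7 and 17 with the likelihood ratio test, DESeq2 and voom, and 0 in those same 6 alternatives. Leaving out single samples gave 0 to 4 members and 0 to 6 pathway genes. Without shNT sample 1 these were 4 and 6, with 9.41% of all genes called. Without shNT sample 3, 4 or 5 or shRNA sample 1 or 3 they were 0 and 0, with no gene of any kind called. The cause was not tested. With the replicate number as a block, 0 members, 0 pathway genes and 0.192% of all genes were called, with Grik4 at 1.07 (FDR 0.119) and Grm7 at 1.16 (FDR 0.203). Same-numbered samples deviated together in 1 of 4 pairs (correlations -0.267, -0.641, 0.486 and -0.181), so the numbers were not taken to pair the samples. Directions reversed for Grm5 with correction for gene length (-0.23) or exon length (-0.19) or without shRNA sample 3 (-0.0093, the lowest value with 1 sample left out, the highest being 0.29), and for Grik3 with voom (0.10) or the covariate (0.12). Correction for exon length moved the median of all genes from 0.11 to -0.0017 on the log2 scale.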
